A study of Mus musculus with 8 samples.

Results

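The conjugating and dehydrogenase detoxification enzymes of mouse olfactory mucosa were followed across 8 expression arrays. Members were the genes whose single platform symbol begins with Gst and a letter, or with Ugt, Sult, Fmo, Ephx, Adh or Aldh and a digit. That gave 45 genes of the 8251 with a single symbol, on 64 of the 12488 probe sets of the array, and each gene took its value from its brightest probe set. A filter on dim signals (over 362.7 intensity units on at least 2 arrays) passed 34 of the 45 members and 6179 of the 8251 genes.

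All RNA came from the olfactory mucosa, the nasal lining that holds the olfactory neurons, of mice that had undergone bilateral bulbectomy, the removal of both olfactory bulbs. The 4 groups, each with 2 arrays, were C57BL/6 mice (wild type) injected with carrier, C57BL/6 mice injected with the chemokine CCL3, and mice labelled Ccl3-/- with either injection. The question the labels pose is what the absence of CCL3, and its injection, do to the response of this tissue to bulbectomy; unoperated mice were not analysed here. Age, dose, time, the strain background of the Ccl3-/- mice and the number of mice behind an array were not given in the sources used here, and no label says that replicates were separate mice, so a p-value here reflects the scatter among arrays, which may be technical.

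Signal of the Ccl3 probe set was opposite to the genotype labels. Its intensity was 332 and 159 on the wild-type carrier arrays, 223 and 386.5 on the wild-type CCL3 arrays, 812 and 804 on the Ccl3-/- carrier arrays, and 727 and 729.5 on the Ccl3-/- CCL3 arrays. The deleted part of Ccl3 was not given in the sources used here, so directions by genotype rest on the labels alone. Median intensities of the arrays lay between 581.4 and 660.3. One array, wild-type carrier replicate 1, had a Gapdh 3′ to 5′ probe ratio of 2.59, while the other 7 lay between 0.755 and 1.31. Its actin ratio, at 1.58, was the lowest of all 8, and the highest was 2.17.

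These enzymes protect the nasal lining from inhaled and metabolic chemicals. Flavin monooxygenases add oxygen to nitrogen and sulfur compounds, epoxide hydrolases open reactive epoxides, and alcohol and aldehyde dehydrogenases oxidise alcohols to aldehydes and aldehydes to acids. Glutathione transferases, sulfotransferases and UDP-glucuronosyltransferases then attach glutathione, sulfate or glucuronic acid, which makes products easier to export. In olfactory mucosa many of them are known from the sustentacular (supporting) cells and Bowman's glands, where they are also thought to help clear odorants, and several are targets of the transcription factor Nrf2 (gene Nfe2l2), which acts through antioxidant response elements.

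The core of that element, TGACNNNGC, was searched on both strands of the 300 bases around each start site (250 before, 50 after) in RefSeq sequence of build GRCm38.p6. It was present for 4 of the 35 members with a promoter entry (11.4%), against 14% of the 27025 genes in the same table, so its share was not above the background. The 4 stretches are shown, 5′ to 3′ on the gene's strand with the core in capitals, because their genes are the members that hold it before the start site.
Gsta3 (chr1:21240439-21240497, plus strand): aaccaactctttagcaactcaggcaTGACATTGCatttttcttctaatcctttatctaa
Gstm5 (chr3:107895787-107895845, plus strand): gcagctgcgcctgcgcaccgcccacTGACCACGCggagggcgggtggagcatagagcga
Aldh1a2 (chr9:71215652-71215710, plus strand): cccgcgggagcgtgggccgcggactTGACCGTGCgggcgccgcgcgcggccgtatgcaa
Aldh9a1 (chr1:167349879-167349937, plus strand): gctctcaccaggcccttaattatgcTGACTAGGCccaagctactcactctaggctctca
The core ended 112, 33, 103 and 78 bases before the start site of Gsta3, Gstm5, Aldh1a2 and Aldh9a1. None of these 4 genes was at an unadjusted p under 0.05 in any of the 5 comparisons below. Members without a promoter entry were Aldh1a3, Aldh2, Aldh3a1, Aldh7a1, Ephx2, Fmo1, Gsta4, Gstt2, Sult2a2 and Sult4a1.

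The tissue expressed most of the set well above the filter, and single members varied over a wide range. Of the 34 members that passed, 32 exceeded the filter value on all 8 arrays. The highest array over the lowest was 2.11-fold in the median member, from 1.29-fold for Gstm5 to 7.51-fold for Gstm2. The 11 members below the filter were Adh4, Aldh18a1, Ephx2, Gsta1, Gstm6, Sult2a2, Sult3a1, Sult5a1, Ugt2b34, Ugt2b5 and Ugt8a, with values from 4 to 424.3. The plot of every member by array shows these patterns by family.

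**Figure D1:**
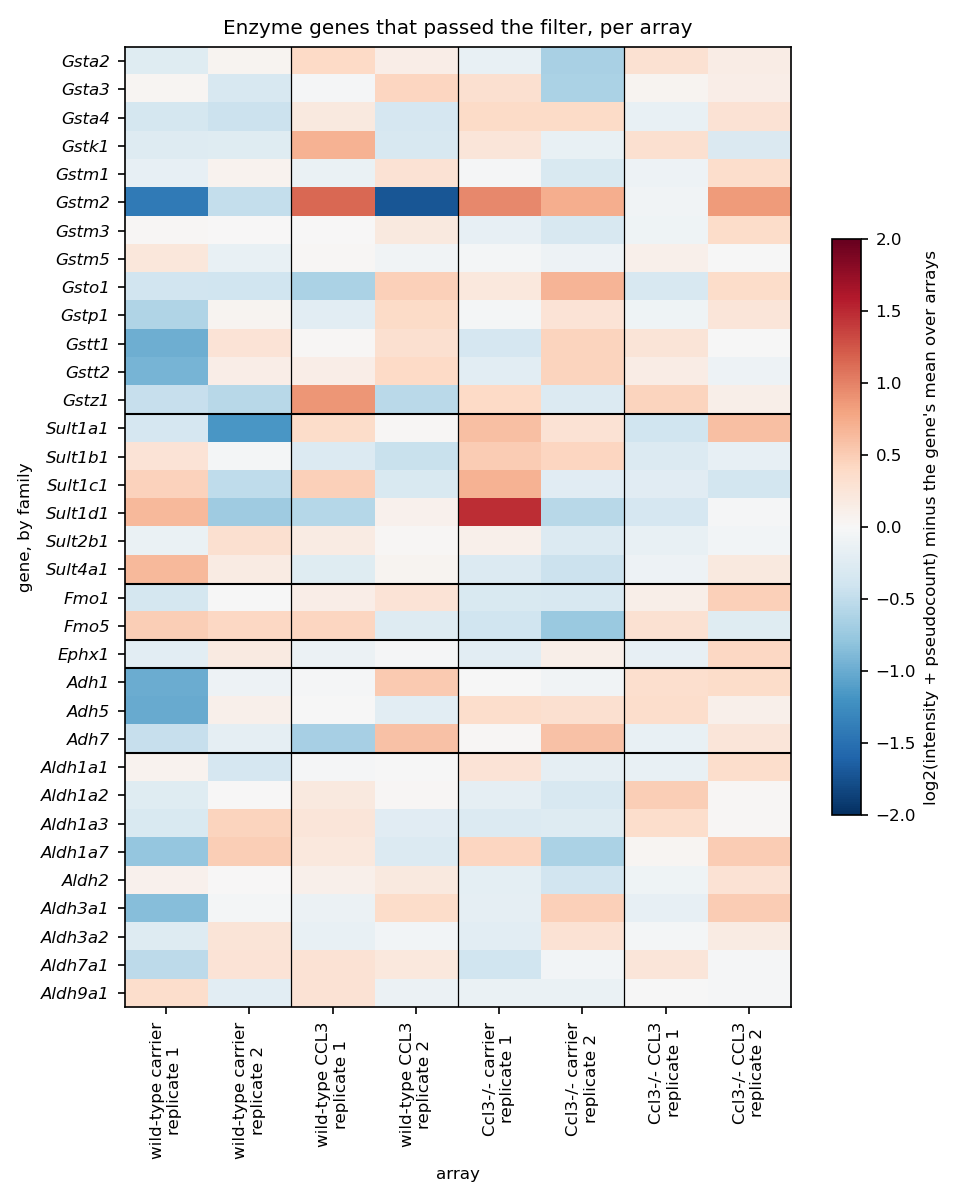
Log2(intensity + pseudocount) of the 34 enzyme genes that passed the filter, minus each gene's mean over the 8 arrays, with genes in rows by family and arrays in columns by group. Colour runs from blue (below the gene's mean) to red (above it), and wild-type carrier replicate 1 has the lowest member median of all arrays (-0.25).

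No member passed the test in any comparison. With limma over 8150 probe sets and Benjamini-Hochberg adjustment, 0 of 34 members were under an adjusted p of 0.05, as were 0% of all genes tested, and the lowest adjusted p of a member was 0.375. Members are therefore described by their values, and counts at an unadjusted limma p under 0.05 are read against the share of all genes at that level. Differences are on the log2(intensity + 102.3) scale with their standard errors (SE), which understates differences of dim genes. In this bulk tissue, fewer cells of a type and less RNA per cell cannot be told apart.

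After carrier injection, Gsta4, Gstm2, Gsto1, Sult1a1 and Adh5 were higher, and Fmo5 and Sult4a1 lower, in mice labelled Ccl3-/- than in wild type at an unadjusted p under 0.05. The 5 higher members are 14.7% of the 34, against 4.79% of all genes tested, and the 2 lower members are 5.88%, against 6.02%. With single arrays left out, each of the 7 kept its sign. The differences nearest 0 were 0.73 (Gsta4), 1.32 (Gstm2), 0.61 (Gsto1), 0.80 (Sult1a1), 0.24 (Adh5), -0.84 (Fmo5) and -0.51 (Sult4a1). Counts from such fits cannot be compared with the count of 7, since such a fit leaves 1 array in a group. Over all 34 members the median difference was 0.11, and over all genes it was -0.02. The members' median was 0.0070 without Ccl3-/- carrier replicate 1, 0.063 without wild-type carrier replicate 1, 0.18 without wild-type carrier replicate 2 and 0.21 without Ccl3-/- carrier replicate 2, and it was -0.015 with no filter, so its direction was not settled. In all, 19 members (55.9%) were above 0, against 48.4% of all genes.

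Gsta4 conjugates the lipid peroxidation product hydroxynonenal with glutathione. Its intensity was 4660.2 and 4391 on the wild-type carrier arrays, 6856 and 4678 with CCL3, 7771 and 7802 on the Ccl3-/- carrier arrays, and 5365 and 7311 on the Ccl3-/- CCL3 arrays. The Ccl3-/- carrier arrays were the highest and most alike pair, and did not overlap with any other array. The carrier difference by genotype was 0.77 ± 0.27 (SE, n = 2 arrays per group; adjusted p = 0.396 in limma). After CCL3 injection the genotype difference was 0.14 ± 0.27 and the arrays overlapped.

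Gstm2, a mu class glutathione transferase, had the widest range. Its intensity was 3405 and 6598 in wild-type carrier, 20538 and 2734 in wild-type CCL3, 18029 and 15299.8 in Ccl3-/- carrier, and 8775 and 16729.8 in Ccl3-/- CCL3. The 2 wild-type CCL3 arrays held the highest and the lowest value of all 8. Their distance was larger than that of 99.98% of the 6179 genes between the same arrays. The carrier difference by genotype was 1.79 ± 0.74 (adjusted p = 0.424 in limma), yet a dimmer second probe set of Gstm2 gave -0.96 ± 0.43, so the probe sets disagreed in direction, and the mean over both was 0.41. Gstm6, another mu class gene and below the filter, read 47.2 and 177.6 in wild-type carrier, 297 and 70.2 in wild-type CCL3, 424.3 and 347 in Ccl3-/- carrier, and 323 and 260.1 in Ccl3-/- CCL3, again with a high and a low array in wild-type CCL3.

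Gsto1, an omega class transferase that acts mainly as a thiol reductase, read 15648 and 15530.1 in wild-type carrier, 13176 and 28673 in wild-type CCL3, 23838 and 33111 in Ccl3-/- carrier, and 16445 and 26409 in Ccl3-/- CCL3. Only the carrier groups did not overlap by genotype. The carrier difference was 0.85 ± 0.37 (adjusted p = 0.437 in limma), and after CCL3 injection it was 0.10 ± 0.37. It was under the unadjusted threshold in 9 of 19 other settings.

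Among the other glutathione transferases, Gstm1, Gstm3 and Gstm5 are read by probe sets marked as shared within a gene family, so their signals may be pooled over the mu cluster. Gstm1 lay between 30891 and 48640.0 and Gstm5 between 56746 and 73247. Gstp1, the pi class enzyme, lay between 8805 and 17407, with a carrier difference by genotype of 0.39 ± 0.31. By their brightest probe sets, 8 of the 13 tested transferases were above 0 in that comparison, with a median of 0.39. This median was not followed with arrays left out, and wild-type carrier replicate 1 had the lowest transferase median of the 8 arrays (-0.35). Dimmer probe sets gave -0.55 ± 0.32 for Gstm1 in that comparison. Those of Gstm5 gave 0.12 ± 0.27, 0.46 ± 0.52 and -0.40 ± 0.31. A dimmer probe set of Gstm3 was lower there at an unadjusted limma p under 0.05 (-0.84 ± 0.27), while the brightest gave -0.26 ± 0.25.

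Sult1a1, which sulfates simple phenols, was dim. Its intensity was 262.6 and 105 in wild-type carrier, 495.5 and 370.1 in wild-type CCL3, 603 and 462 in Ccl3-/- carrier, and 247 and 602 in Ccl3-/- CCL3. Both wild-type carrier arrays lay under the filter value of 362.7, and under both arrays of Ccl3-/- carrier and of wild-type CCL3. The difference was 1.20 ± 0.43 by genotype after carrier (adjusted p = 0.398 in limma) and 0.95 ± 0.43 for CCL3 against carrier in wild type (adjusted p = 0.911 or higher for every member in that comparison). These comparisons share the wild-type carrier arrays. A second Sult1a1 probe set, too dim to be tested, read 35.9 and 10.4 in wild-type carrier and 5.7 and 6 in Ccl3-/- carrier, the opposite order. In wild-type CCL3 it read 64.4 and 75.3, the same order as the first.

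Sult4a1, a sulfotransferase-like gene known mainly from neurons, went the other way. It read 1728 and 1205 in wild-type carrier, 882.5 and 1107 in wild-type CCL3, 865 and 764 in Ccl3-/- carrier, and 990.1 and 1234.5 in Ccl3-/- CCL3. The wild-type carrier arrays were above both arrays of wild-type CCL3 and of Ccl3-/- carrier. Its carrier difference by genotype was -0.76 ± 0.27 (adjusted p = 0.398 in limma). Neuronal precursor markers were also low there: of 10 tested, 1 was above 0 in this comparison, with 3 (Neurod1, Neurog1 and Sox11) lower at an unadjusted p under 0.05 and a median of -0.45, and their summed intensity was 37334 to 59433 in wild-type carrier and 29666 to 41626.5 in Ccl3-/- carrier. Of 8 mature neuron markers, 3 were above 0 (median -0.17, with Cnga2 higher at that level), with summed intensities of 45618 to 49029 and 34042.5 to 82569. Their part in the Sult4a1 difference was not tested.

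Fmo5, an unusual flavin monooxygenase that carries out Baeyer-Villiger oxidations, had the smallest p of all members. Its intensity was 5072 and 4809.9 in wild-type carrier, 4866 and 2978 in wild-type CCL3, 2712 and 2092 in Ccl3-/- carrier, and 4479 and 3024 in Ccl3-/- CCL3. The Ccl3-/- carrier arrays were the lowest pair and overlapped with no other array. They were lower than wild-type carrier by 2.03-fold, a log2 difference of -1.02 ± 0.31 (unadjusted p = 0.00848, adjusted p = 0.375 in limma), which was under the unadjusted threshold in 18 of 19 other settings and lay between -1.20 and -0.84 with single arrays left out. A second, dimmer Fmo5 probe set gave -0.86 ± 0.42 in the same direction. Between genotypes after CCL3 the difference was -0.05 ± 0.31.

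Adh5, which oxidises glutathione-bound formaldehyde and reduces S-nitrosoglutathione, read 5816.5 and 12626.5 in wild-type carrier, 11768 and 10174.5 in wild-type CCL3, 15029 and 14736 in Ccl3-/- carrier, and 15019 and 12642 in Ccl3-/- CCL3. The low value of wild-type carrier replicate 1, the array with the highest Gapdh ratio and the lowest actin ratio, stood apart from the other 7. The carrier difference by genotype was 0.79 ± 0.34 (adjusted p = 0.427 in limma). Leaving out wild-type carrier replicate 1 gave 0.24, and leaving out replicate 2 gave 1.34 (adjusted p = 0.0461, over a range of 0.0461 to 0.772 in the other settings, and the one adjusted call among the members in any setting tried), and a second Adh5 probe set gave -0.05 ± 0.24. The probe set used is marked as matching several transcripts.

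Arrays of the genotypes did not overlap after carrier for 10 members that were higher in mice labelled Ccl3-/- (29.4%, against 15.5% of all genes) and for 4 that were lower (11.8%, against 22.4%). The 10 were the 5 named higher members with Adh1, Adh7, Gstk1, Gstz1 and Sult1b1; the 4 were Fmo5, Sult4a1, Aldh2 and Gstm3. Neutrophil markers also separated these groups: 8 of 9 tested were above 0 (median 0.66), with Ngp, S100a8 and S100a9 higher at an unadjusted p under 0.05, and the summed intensity of the 11 on the array was 87439 to 98970.0 in wild-type carrier and 122768 to 175694 in Ccl3-/- carrier. Sustentacular markers did not: 4 of 10 were above 0 (median -0.03), with Cdh1 lower, and summed intensities were 93504 to 117692 and 109023 to 113721. Of 4 tested horizontal basal cell markers, 3 were above 0 (median 0.69), with Icam1 and Krt17 higher at an unadjusted p under 0.05, and the summed intensity of the 7 on the array was 3499.8 to 4251 in wild-type carrier and 4147 to 6602 in Ccl3-/- carrier. Of 8 Bowman gland markers, 5 were above 0 (median 0.31) with none at that level, and their summed intensities were 152741 to 193231 and 146664 to 228532. Ltf is in both the neutrophil and the gland list, so their sums share this gene. The part of these cells in the enzyme differences was not tested.

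**Figure D2:**
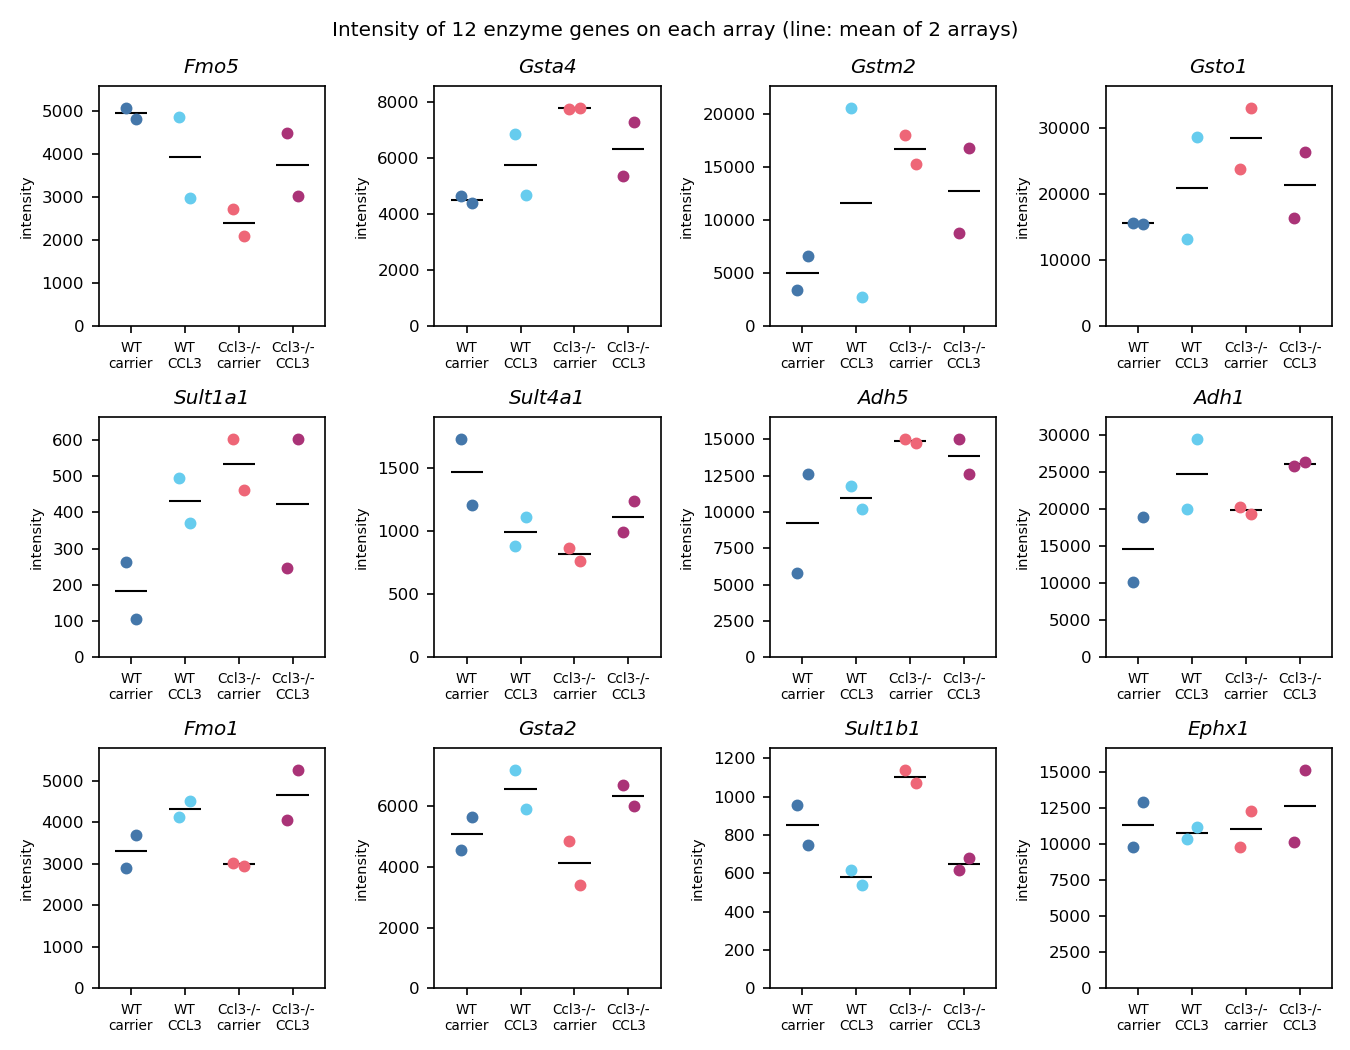
Intensity (linear axis from 0) of 12 enzyme genes on each of the 8 arrays, by group; points are single arrays and lines the mean of 2. The Ccl3-/- carrier points are the highest pair for Gsta4 and the lowest pair for Fmo5, while the 2 wild-type CCL3 points of Gstm2 are the highest and lowest of their panel.

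After CCL3 injection, no enzyme stood out between the genotypes. No member was at an unadjusted p under 0.05 in limma, higher (against 0.664% of all genes) or lower (0.631%); without wild-type CCL3 replicate 1 there was 1. Arrays did not overlap for Adh5 and Aldh3a2, which were higher in mice labelled Ccl3-/- (5.88% of members, against 16.1% of all genes), and for Sult2b1, a cholesterol sulfotransferase, which was lower (2.94%, against 12.8%). Their differences were 0.33 ± 0.34, 0.17 ± 0.28 and -0.19 ± 0.32. The median over members was 0.06 (-0.082 without Ccl3-/- CCL3 replicate 2 and 0.18 without Ccl3-/- CCL3 replicate 1), with 21 of 34 above 0 (61.8%, against 52.4% of all genes), and all members lay between -0.38 and 0.68. Neutrophil markers were above 0 for 6 of 9 (median 0.72), with Camp, Mpo and Ngp higher at an unadjusted p under 0.05. Red blood cell genes were above 0 for all 5 tested (median 1.18), with 4 higher at that level. Gland markers were above 0 for 1 of 8 (median -0.64), with Muc5ac and Wfdc18 lower at that level. Their part in the enzyme values was not tested.

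In mice labelled Ccl3-/-, Fmo1 and Gsta2 were higher and Sult1b1 lower with CCL3 than with carrier at an unadjusted p under 0.05. The 2 higher members are 5.88% of 34, against 2.72% of all genes, and the 1 lower member is 2.94%, against 2.1%. The count of 3 was 1 without Ccl3-/- carrier replicate 1, without Ccl3-/- CCL3 replicate 1 or without either wild-type CCL3 array, and 0 without Ccl3-/- CCL3 replicate 2. Arrays did not overlap for 12 members that were higher (35.3%, against 23.4%) and 2 that were lower, Gsta4 and Sult1b1 (5.88%, against 16%). Differences were above 0 for 21 members (61.8%, against 54% of all genes), with a median of 0.09 that was 0.16 without Ccl3-/- carrier replicate 1, 0.14 without Ccl3-/- CCL3 replicate 1 and 0.17 with the mean over probe sets.

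Fmo1, the monooxygenase of many amine drugs and sulfides, read 3010.2 and 2959.9 in Ccl3-/- carrier and 4057 and 5266 in Ccl3-/- CCL3. In wild type it read 2898 and 3699 with carrier and 4121 and 4516.5 with CCL3. Both CCL3 arrays lay above both carrier arrays in each genotype. The difference was 0.61 ± 0.25 in mice labelled Ccl3-/- (adjusted p = 0.940 in limma) and 0.39 ± 0.25 in wild type. Fmo5 also had non-overlapping CCL3 and carrier arrays in Ccl3-/- (0.61 ± 0.31), but not in wild type (-0.37 ± 0.31); the interaction, which tests the difference between these, was 0.97 ± 0.44 (adjusted p = 0.908 in limma).

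Gsta2, an alpha class transferase, read 4858 and 3407 in Ccl3-/- carrier and 6709.8 and 5991 in Ccl3-/- CCL3, with 4555 and 5633 in wild-type carrier and 7198 and 5917 in wild-type CCL3. Its CCL3 arrays, too, lay above its carrier arrays in each genotype. The differences were 0.63 ± 0.27 (adjusted p = 0.940 in limma) and 0.36 ± 0.27. Without Ccl3-/- carrier replicate 2 the first was 0.38.

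Sult1b1, which sulfates thyroid hormones and small phenols, showed the opposite order. It read 1140.6 and 1070.3 in Ccl3-/- carrier and 618 and 682 in Ccl3-/- CCL3, with 956 and 746 in wild-type carrier and 619 and 540.2 in wild-type CCL3. All 4 CCL3 arrays lay below all 4 carrier arrays. The differences were -0.68 ± 0.26 (adjusted p = 0.940 in limma) and -0.48 ± 0.26, and the interaction was -0.21 ± 0.36.

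Among the other tested sulfotransferases, Sult1d1 and Sult1c1 had replicates far apart in some groups, and Sult2b1 lay between 327.8 and 545.4. Sult1d1, which sulfates catechols, read 4357 and 1643 in wild-type carrier and 7799.6 and 1841 in Ccl3-/- carrier, against 1829 and 2924, and 2149.9 and 2702, with CCL3. Its replicates differed by over 2-fold in both carrier groups. Sult1c1, an abundant olfactory sulfotransferase, read 11806 and 5979 in wild-type carrier, 11926.5 and 6959.9 in wild-type CCL3, 14037 and 7345 in Ccl3-/- carrier, and 7360.2 and 6631 in Ccl3-/- CCL3. Of the 6 tested sulfotransferases, 5 were below 0 for CCL3 against carrier in mice labelled Ccl3-/-, with a median of -0.44.

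All 9 tested aldehyde dehydrogenases were above 0 in that comparison, from 0.02 to 0.50 with a median of 0.34. The count was 7 without either Ccl3-/- carrier array and 6 without Ccl3-/- CCL3 replicate 2, when the median was 0.14. By its brightest probe set, none was at an unadjusted p under 0.05 in any of the 5 comparisons. Dimmer probe sets were at that level for CCL3 against carrier in wild type, higher for Aldh3a1 (1.17 ± 0.45) and lower for Aldh3a2 (-0.68 ± 0.28). The brightest ones gave 0.58 ± 0.37 and -0.10 ± 0.28 there. Aldh1a2, a retinaldehyde dehydrogenase that makes retinoic acid, read 773 and 694 in Ccl3-/- carrier and 1293 and 900 in Ccl3-/- CCL3, a difference of 0.50 ± 0.27. Its wild-type arrays read 735 and 899 with carrier and 1033 and 901 with CCL3, so CCL3 arrays were above carrier arrays in both genotypes.

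Aldh2, the mitochondrial enzyme that clears acetaldehyde, read 15481 and 14708 in wild-type carrier, 15768 and 16677 in wild-type CCL3, 12729.7 and 11223 in Ccl3-/- carrier, and 13705 and 17839.5 in Ccl3-/- CCL3. The Ccl3-/- carrier arrays were the lowest pair. The genotype difference after carrier was -0.33 ± 0.23 and the CCL3 difference in mice labelled Ccl3-/- was 0.38 ± 0.23. Aldh1a1, another retinaldehyde dehydrogenase, lay between 20721 and 33162 with overlapping groups in all comparisons. Aldh1a3, the third of these, lay between 448.9 and 821.8, with a CCL3 difference of 0.45 ± 0.33 in mice labelled Ccl3-/-.

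Red blood cell genes separated the same groups: all 5 tested were higher with CCL3 in mice labelled Ccl3-/- at an unadjusted p under 0.05 (median 1.20), with summed intensities of 40648 to 47553 after carrier and 85274 to 90773 after CCL3. Neuronal precursor markers were above 0 for 8 of 10 (median 0.38), with Gap43, Neurod1 and Sox11 higher at that level. Sustentacular markers had a median of -0.06 with none at that level, although their summed intensity, led by abundant cytochromes, was 109023 to 113721 after carrier and 119005 to 132170.3 after CCL3. All 4 tested horizontal basal cell markers were below 0 (median -0.71), with Icam1 and Trp63 lower at that level, and their list summed to 4147 to 6602 after carrier and 2601 to 3782 after CCL3. Neutrophil markers had a median of -0.55, with Lcn2 lower and Camp higher at that level, and summed to 122768 to 175694 and then 93120.1 to 111351. Of 8 gland markers, 5 were above 0 (median 0.05), with Wfdc18 lower at that level (-1.68 ± 0.42), and they summed to 146664 to 228532 and then 134519 to 176198. Their part in the enzyme differences was not tested.

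In wild type, most members had a higher mean on the CCL3 arrays than on the carrier arrays, and no single member passed. Differences were above 0 for 26 of 34 members (76.5%), against 49.2% of all genes tested, and their median was 0.25 against -0.01. The count was 23 without wild-type carrier replicate 1, 23 without wild-type CCL3 replicate 2 and 20 without wild-type CCL3 replicate 1, with medians of 0.14, 0.19 and 0.13. At an unadjusted p under 0.05, 1 member was higher (2.94%, against 1.97%) and 0 lower (against 1.96%). That count of 1 moved with single arrays left out, and such a fit leaves 1 array in a group. The share of all genes at that level was not counted in those fits, so their counts cannot be read against a background.

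Adh1, the main ethanol and retinol dehydrogenase, was the 1 member. It read 10197 and 18964 in wild-type carrier, 20032 and 29422 in wild-type CCL3, 20237 and 19364 in Ccl3-/- carrier, and 25758 and 26272 in Ccl3-/- CCL3. CCL3 arrays lay above carrier arrays in each genotype, and wild-type carrier replicate 1 was the lowest of all 8. The difference was 0.80 ± 0.31 in wild type (adjusted p = 0.911 in limma) and 0.39 ± 0.31 in mice labelled Ccl3-/-. Without wild-type carrier replicate 1 the wild-type value was 0.35, and without replicate 2 it was 1.24.

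All 3 tested alcohol dehydrogenases were above 0 both for CCL3 in wild type (median 0.35) and by genotype after carrier (median 0.63); these comparisons share the wild-type carrier arrays. Without wild-type carrier replicate 1 the medians were 0.14, with 2 of 3 above 0, and 0.24. Adh7, a retinol dehydrogenase of epithelia, read 8847 and 10822 in wild-type carrier, 7693 and 18451 in wild-type CCL3, 12476 and 18485 in Ccl3-/- carrier, and 10956 and 14430.4 in Ccl3-/- CCL3. Its genotype difference after carrier was 0.63 ± 0.39.

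Of the 13 glutathione transferases, 12 were above 0 for CCL3 in wild type by their brightest probe sets, with a median of 0.36. None of these was at an unadjusted p under 0.05. Without wild-type carrier replicate 1 the count above 0 was 12 with a median of 0.19, and without either wild-type CCL3 array it was 9. A dimmer probe set of Gstm3 was lower at that level (-0.75 ± 0.27, against 0.09 ± 0.25 for the brightest), with an interaction of 0.93 ± 0.38, also at that level. Dimmer probe sets gave -0.09 ± 0.32 for Gstm1 and 0.18 ± 0.43 for Gstm2. Gstz1, which also takes part in tyrosine breakdown, read 3837 and 3606 in wild-type carrier and 9914 and 3627 in wild-type CCL3. Gstk1, the mitochondrial kappa class enzyme, read 2784 and 2810.1 and then 5453 and 2637. In both, as in Gstm2, wild-type CCL3 replicate 1 was high and replicate 2 near or below the carrier arrays.

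Replicates within wild-type CCL3 differed by over 2-fold for 5 of 34 members (14.7%), against 4.71% of all genes. Gstm2, Gstk1 and Gstz1 were higher on replicate 1, and Adh7 and Gsto1 on replicate 2. In wild-type carrier it was also 5 members (14.7%, against 13.5%), in Ccl3-/- carrier 2 (5.88%, against 7.12%) and in Ccl3-/- CCL3 1 (2.94%, against 2.43%).

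In wild type, arrays did not overlap for 8 members that were higher with CCL3 (23.5%, against 12.5% of all genes), namely Adh1, Aldh1a2, Aldh2, Fmo1, Gsta2, Gsta4, Gstt2 and Sult1a1, and for Sult1b1 and Sult4a1, which were lower (5.88%, against 17.2%). Of these, Adh1, Aldh1a2, Aldh2, Fmo1 and Gsta2 were higher, and Sult1b1 lower, without overlap in mice labelled Ccl3-/- as well. The share of all genes without overlap in both genotypes was not counted, so this list cannot be read against a background. For Aldh1a2 in wild type the nearest arrays were almost equal, at 898.9 with carrier and 900.8 with CCL3. Sustentacular markers had 4 of 10 above 0 in wild type (median -0.09), with Cyp2f2, an olfactory and airway cytochrome, higher at an unadjusted p under 0.05, at 13645 and 38293 in carrier and 40541 and 45846 in CCL3; their summed intensity was 93504 to 117692 and then 122577 to 133788. Gland markers, summed over 8 genes, were 152741 to 193231 and then 215931 to 220459.7; 5 of the 8 were above 0 (median 0.14), with Lcn4 and Muc5ac higher at that level. The lipocalin genes Lcn3 and Lcn4 stood apart on wild-type carrier replicate 1, at 92.4 and 22.4, against 36365 and 13198 on replicate 2. Their part in the enzyme values was not tested.

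**Figure D3:**
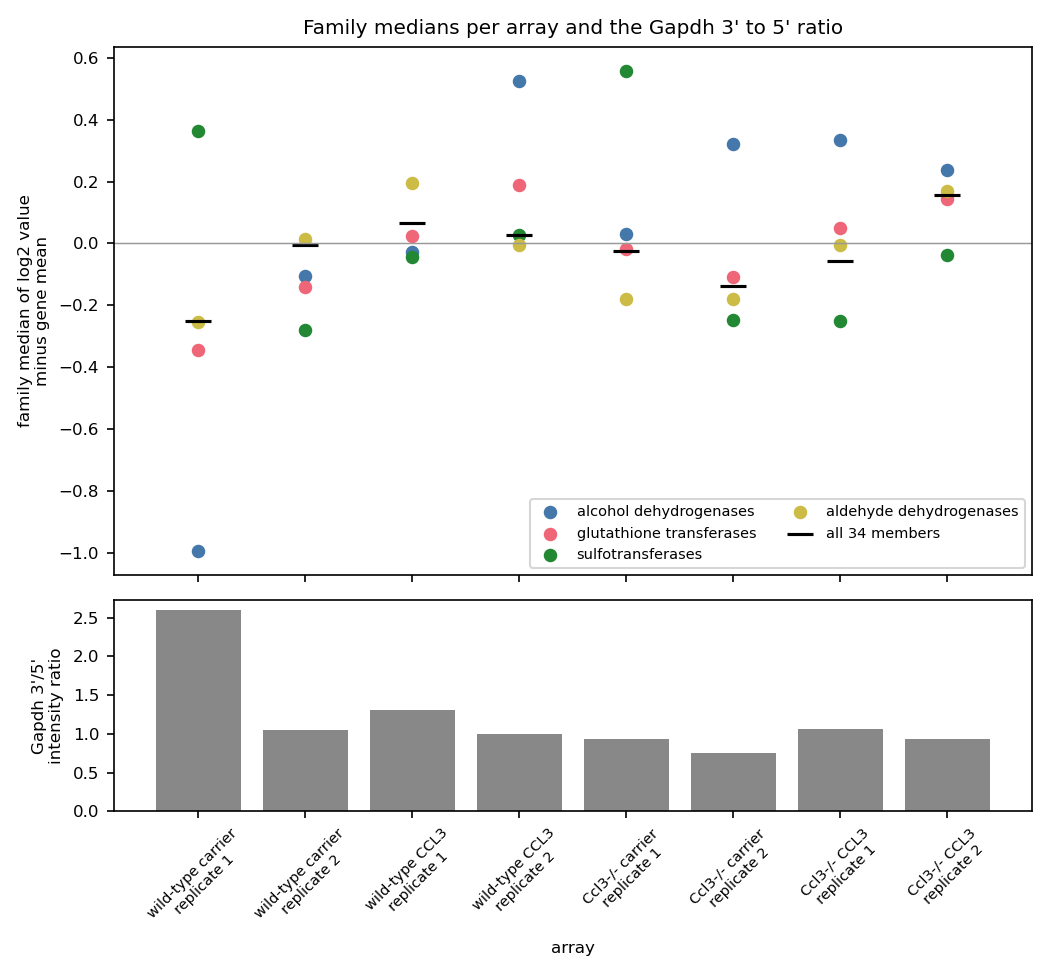
Upper panel: median over the tested members of 4 enzyme families, and over all 34 members, of log2 values minus each gene's mean, for each array; lower panel: ratio of the Gapdh 3′ to the 5′ probe set intensity. Wild-type carrier replicate 1 has the lowest alcohol dehydrogenase median (-0.99) and the highest Gapdh ratio (2.59).

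The difference in the CCL3 response between genotypes was tested as an interaction. Sult4a1 was the 1 member above 0 at an unadjusted p under 0.05 (2.94%, against 2.95% of all genes), with 0.90 ± 0.39 (adjusted p = 0.908 in limma), and 0 were below (against 1.84%). Its CCL3 difference was 0.40 ± 0.27 in mice labelled Ccl3-/- and -0.50 ± 0.27 in wild type. The count was 0 without Ccl3-/- carrier replicate 2 or Ccl3-/- CCL3 replicate 1, 5 without wild-type carrier replicate 2, 3 without either wild-type CCL3 array and 2 without Ccl3-/- CCL3 replicate 2. The interaction was above 0 for 14 of 34 members (41.2%, against 52.1% of all genes). That of Sult1a1 was -1.30 ± 0.61 and of Gsta4 -0.63 ± 0.39.

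**Figure D4:**
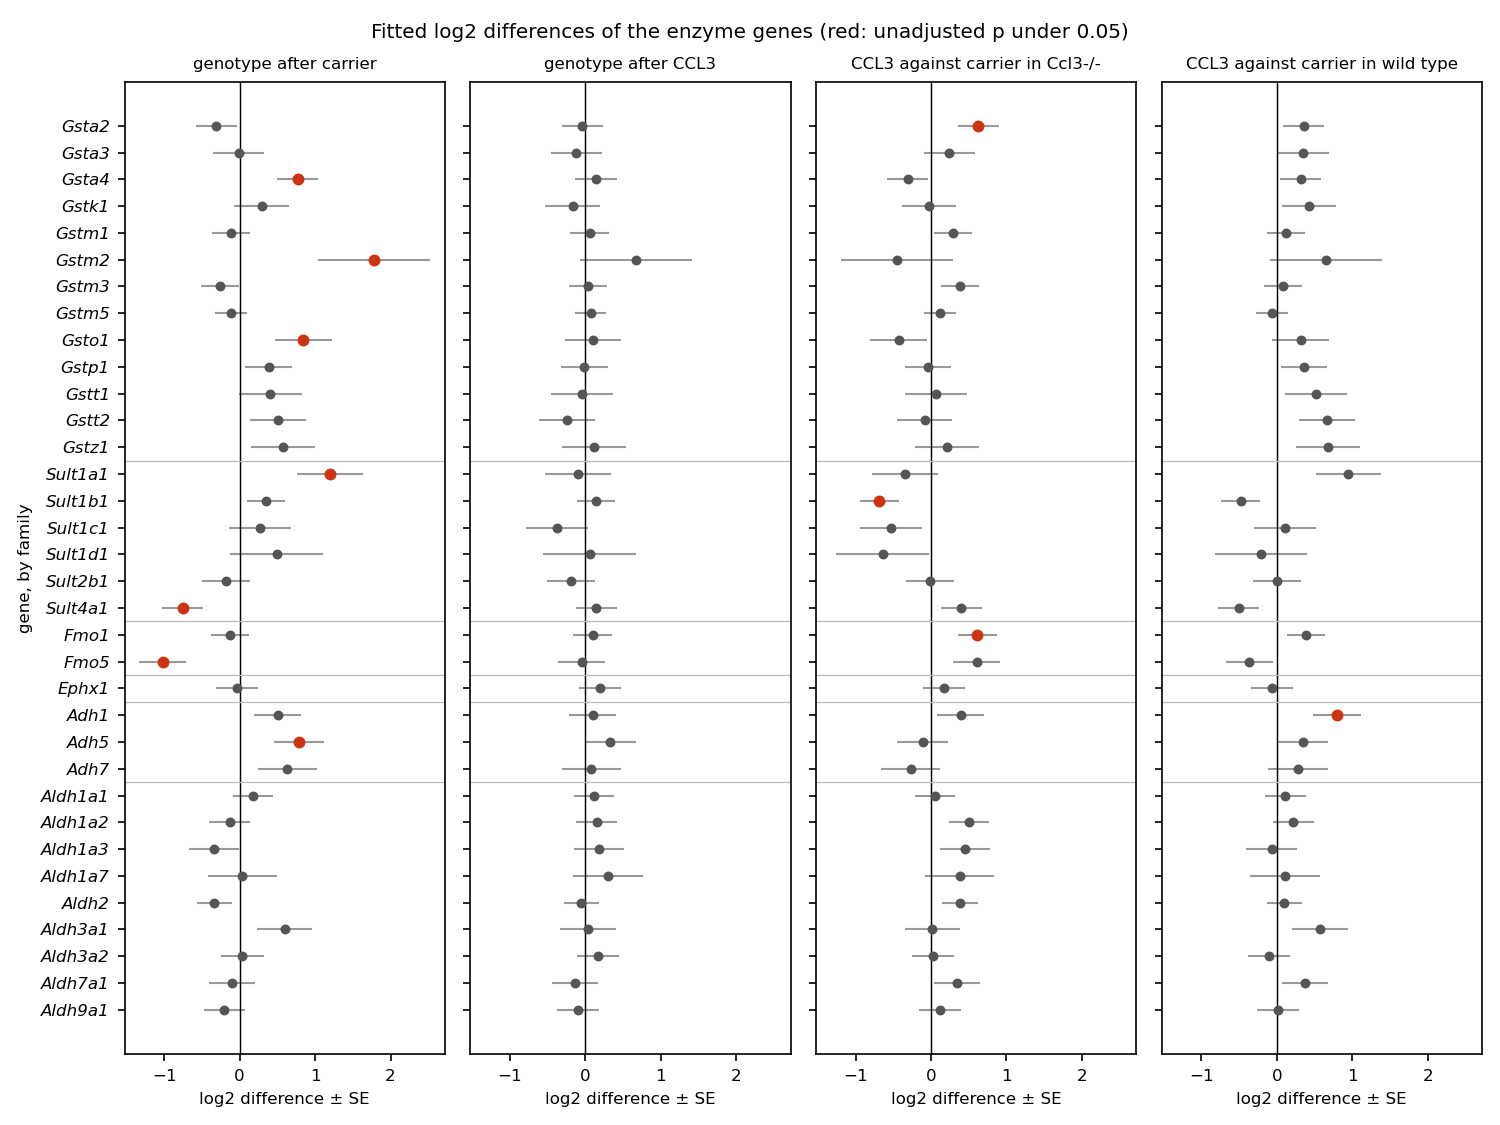
Fitted log2 differences (horizontal axis, ± SE) of the 34 tested enzyme genes, by family, in 4 panels, for genotype after carrier, genotype after CCL3, CCL3 against carrier in mice labelled Ccl3-/-, and CCL3 against carrier in wild type. Red points have an unadjusted p under 0.05: 7, 0, 3 and 1 of them, none of which passed after adjustment over all probe sets.

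Ephx1, the microsomal epoxide hydrolase, had no difference beyond its error. It lay between 9758 and 15125 with overlapping groups, and its differences were between -0.06 and 0.20 in the 4 comparisons of groups. All 3 UDP-glycosyltransferases with a single symbol were below the filter, and Ugt2a1, the olfactory enzyme, had no probe set of its own symbol alone. A bright probe set annotated to 8 Ugt1a genes lies outside the members. It read 10774 and 13633 in wild-type carrier, 14826 and 17559 in wild-type CCL3, 12399 and 9844.8 in Ccl3-/- carrier, and 14129.7 and 13802 in Ccl3-/- CCL3, so CCL3 arrays were above carrier arrays in each genotype.

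Genes around these enzymes were read from 6 lists. Donor supply (8 of 12 listed genes tested) had none at an unadjusted p under 0.05 in any of the 5 comparisons; Gclc, the catalytic subunit of the first step of glutathione synthesis, was 0.89 ± 0.40 by genotype after carrier, and Ugdh, which makes UDP-glucuronic acid, was 0.41 ± 0.28 for CCL3 in mice labelled Ccl3-/-. Of the 5 tested membrane glutathione transferases, Ltc4s, leukotriene C4 synthase, was lower by genotype after carrier (-0.79 ± 0.33), and Mgst1 was 0.36 ± 0.24. The 3 tested methyl, acetyl and glycine transferases had none, with Inmt at 0.51 ± 0.30 and Nat2 at 0.44 ± 0.45 in that comparison. Among 11 other reductases, oxidases and esterases, the carboxylesterase Ces1d was higher with CCL3 in mice labelled Ccl3-/- (0.49 ± 0.21), and Xdh was 0.60 ± 0.30 in wild type.

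Of 11 tested regulators, Ppara was lower by genotype after carrier (-0.84 ± 0.34) and Rxrb higher with CCL3 in mice labelled Ccl3-/- (0.75 ± 0.32), each at an unadjusted p under 0.05. Nfe2l2 itself was -0.10 ± 0.30 by genotype after carrier. Of 6 tested efflux transporters, Abcc1, which exports glutathione conjugates, was higher by genotype after carrier (1.31 ± 0.52). It read 341.8 and 1550.5 in wild-type carrier and 2026 and 2017 in Ccl3-/- carrier, and wild-type carrier replicate 1 again held the lowest value. Abcb4, a phospholipid transporter, was lower there (-1.47 ± 0.43), lower with CCL3 in wild type (-0.98 ± 0.43) and higher with CCL3 in mice labelled Ccl3-/- (1.15 ± 0.43), with an interaction of 2.13 ± 0.60 (adjusted p = 0.908 in limma).

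The other marker lists, by the range of their median difference over the 5 comparisons, were respiratory epithelium (5 tested, -0.08 to 0.30), horizontal basal cells (4 tested, -0.85 to 0.69), macrophages (10 tested, -0.14 to 0.35), skeletal muscle (6 tested, -0.12 to 0.34), bone and cartilage (4 tested, -0.15 to 0.33) and ensheathing glia (6 tested, -0.35 to 0.21).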

How the data were processed

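RNA of 8 mouse olfactory mucosa samples was measured on single-colour arrays. The deposited values were intensities, 1 per probe set and array; the scaling the authors used is not given in the sources used here. Groups came from the labels. Probe sets were named through the platform annotation, and all 45 member symbols matched the RefSeq gene table of GRCm38.p6.

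Values were analysed as log2(intensity + 102.3), the 20th percentile of the table being the pseudocount. The 66 control probe sets were left out. Probe sets over 362.7, the 40th percentile, on at least 2 arrays were tested: 8150 in all. limma 3.58.1 in R 4.3.3 was fitted to all 8 arrays with 4 group means (4 residual degrees of freedom) and an intensity trend, with Benjamini-Hochberg adjustment over all tested probe sets, and was tested on simulated data. A p is two-sided. The number of arrays, 2 in a group, limits the precision.

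Members, gene lists and rules were chosen with earlier results of these data known. Named were members at an unadjusted p under 0.05, at least 2 members of a family by p, standard olfactory and family markers, and up to 2 genes of each list. The 12 marker lists and 6 pathway lists were described by counts and medians. Alternatives were other normalizations, pseudocounts and filters, no trend, a replicate block, only the groups compared, the mean over probe sets and each array left out. Replicate numbers did not pair the arrays (correlations of deviations -0.16 to 0.18).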

Additional observations from a re-analysis of the deposited data

Results flagged for a closer look

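Gsta4 and Sult4a1 had CCL3 and carrier arrays that did not overlap, in opposite directions in the genotypes. For Gsta4 the CCL3 difference was -0.31 in mice labelled Ccl3-/- and 0.32 in wild type, and the interaction was -0.63 ± 0.39 (unadjusted p = 0.136, adjusted p = 0.908 in limma), which did not pass. For Sult4a1 it was 0.40 in mice labelled Ccl3-/- and -0.50 in wild type, and the interaction was 0.90 ± 0.39 (unadjusted p = 0.0410, adjusted p = 0.908 in limma), which did not pass after adjustment. Each direction rests on 2 arrays against 2. The share of all genes with such opposite directions was not counted, so these 2 members cannot be read against a background.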

How the results depend on the processing

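No difference of a member at an unadjusted p under 0.05 changed its sign in the 11 other settings (10 for the interaction) or with any of the 8 arrays left out. Sult1a1 by genotype after carrier was tested in 18 of these 19. None of these settings used a dimmer probe set alone. By genotype after carrier, the dimmer ones of Gstm2 (-0.96) and Adh5 (-0.05) had the opposite sign to the brightest. The dimmer one of Fmo5 (-0.86) had the same sign. Named genes of the marker and pathway lists were not followed through these settings. Counts are of members at an unadjusted p under 0.05 in limma unless an adjusted p is named. For CCL3 in mice labelled Ccl3-/- the count of 3 was 1 with cyclic loess. For CCL3 in wild type the count of 1 was 2 with quantile normalization, scaling to one median, cyclic loess, the lower pseudocount, no intensity trend and the mean over probe sets, and 0 with only the groups compared; its median of 0.25 was 0.12 with no filter. The interaction count of 1 was 0 with scaling to one median and with the filter at the 60th percentile, and 2 with no intensity trend. With the replicate number as a block, the count for CCL3 in wild type was 2. No other count or median of the members moved beyond the limit set for a change. Over all probe sets, the block let 1 that is not of a member pass at an adjusted p under 0.05 by genotype after carrier.

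With single arrays left out, the genotype comparison after carrier had 0 to 1 members at an adjusted p under 0.05 and 2 to 9 unadjusted, with a median of 0.0070 to 0.21. After CCL3 it had 0 to 1, with a median of -0.082 to 0.18. CCL3 in mice labelled Ccl3-/- had 0 to 3, with a median of 0.093 to 0.16. CCL3 in wild type had 1 to 8, with a median of 0.13 to 0.31. The interaction had 0 to 5, with a median of -0.23 to 0.028. The share of all genes at an unadjusted p under 0.05 was not counted with arrays left out, so these counts cannot be read against a background. The counts of members above 0 with arrays left out were added after seeing the data. With 2 arrays a group and a filter that removed 11 members, small differences and dim genes are not resolved; leaving out wild-type carrier replicate 2 let 113 probe sets pass by genotype after carrier and 74 pass for CCL3 in wild type, against 0 with all arrays.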
